A study of Arvicanthis niloticus with 28 samples.

Results

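The baseline transcriptome of the retinal vessels of the Nile rat (Arvicanthis niloticus), a rodent that develops diabetes on an energy-rich diet, was described in 19 of the 28 rats with an RNA-seq library of their isolated retinal vasculature. The 19 rats (14 females and 5 males) were chosen by their labels, with an acellular capillary density below 16 per mm2 and a random blood glucose below 100 mg/dL. Their density lay between 6.03 and 14.5 per mm2 (median 8.73) and their glucose between 52.0 and 91.4 mg/dL (median 63.1). The next rats outside these limits had a glucose of 127 mg/dL, at a normal density, or a density of 17.1 per mm2. All 19 rats were WT by genotype and had received no treatment. Per the study's methods, rats of the colony ate either a high-fiber or a high-caloric diet, and which of these diets each rat had eaten, and its age, were not given. The vessels had been freed of the neural retina by osmotic lysis and washing, with 1 library per rat and no repeat libraries. The other 9 rats, 5 of normal density with a glucose of 127 mg/dL or more and 4 with a density above 17 per mm2, are used only to set values beside those of the 19.

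The retinal capillary is built of endothelial cells, joined by tight junctions into the inner blood-retina barrier, and of pericytes that share their basement membrane. Larger arterioles carry smooth muscle cells instead of pericytes. The endfeet of astrocytes and Müller glia, the radial glia of the retina, ensheath both, and blood cells fill the lumen.

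Expression was read as TPM, a level per transcript length that sums to 1000000 per library, after the 12 mitochondrially encoded genes (symbols starting with mt-) were left out and each library was rescaled to that sum. The mt- genes had held between 5.27% and 29.3% of TPM. A gene was counted as found in a library when its TPM was above 0. The total of a library lay between 153108 counts (rat T410F) and 10029200 counts (T424M), with a median of 5613540. A gene at 0 could still have up to 3 counts within counting error, or 0.299 of 1000000 counts (CPM) in the deepest library and 19.6 CPM in the shallowest. Between 7500 genes (T448M) and 16139 genes (T414F) were found per library, out of 18958. The number did not follow depth alone. T420F, T424M, T425M and T430F had 6552950 to 10029200 counts, yet 10327 genes or fewer were found in each. In these 4 libraries between 94 and 177 genes stood at 0 where at least 100 counts were due from their median level in the other libraries. After these values were seen, the libraries were split at the widest gap that leaves 6 or more on each side, into 7 with 12672 to 16139 genes (T393F, T397F, T398F, T401F, T404F, T414F and T419F, all female) and 12 with 7500 to 11564 genes (7 females and 5 males). This gap of 1108 genes was no clear break, since T448M lay 1165 genes below the next library and T398F 1099 below T419F. Labels gave no batch, run or date to set beside the split.

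**Figure D1:**
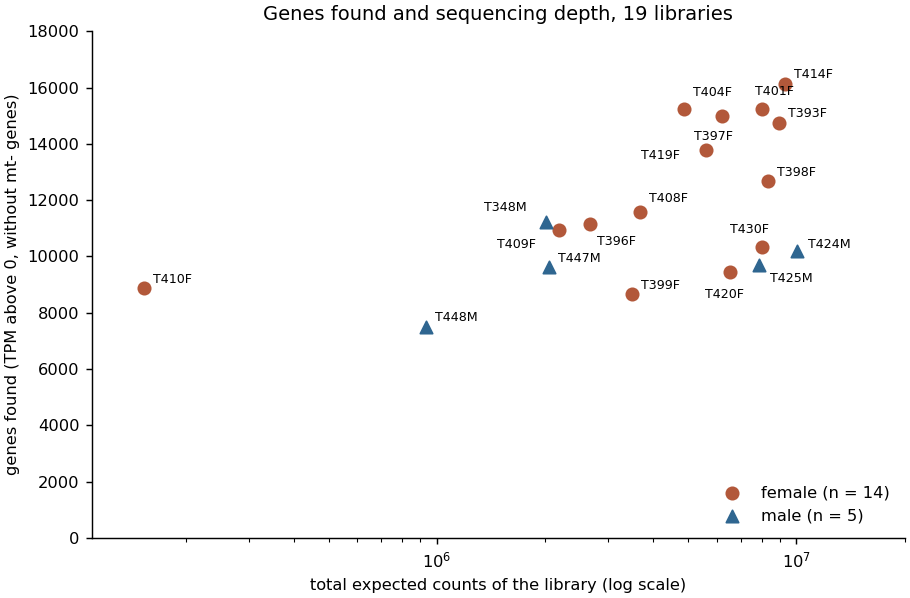
Number of genes found (vertical axis, TPM above 0 without mt- genes) against the total expected counts of the library (horizontal axis, log scale) for 19 rats, with circles for females and triangles for males. T448M has the fewest genes (7500) and T414F the most (16139), and T424M, the deepest library, has 10175.

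Of the 18958 genes, 4194 (22.1%) were found in all 19 libraries, and they held 73.2% ± 5.99 of TPM (SD, n = 19, range 62.8% to 79.2%). A further 7731 genes were found in 10 to 18 libraries, 5738 in 1 to 9, and 1295 in none. Genes found everywhere were the more abundant ones, with a median of their mean level of 59.8 TPM, against 7.54 TPM for genes found in 1 to 18 libraries. T448M was the only library without 591 of the 1663 genes found in 18 libraries, and T410F the only one without 139 of them. Of the 89 genes with a mean of at least 1000 TPM, 85 were found in all 19. The exceptions were Ccl19, a chemokine that guides lymphocytes (mean 1251 TPM, at 0 in T398F and T424M), Ndn, a growth suppressor of neurons (1388 TPM, at 0 in T420F), Mdk, the growth factor midkine (1174 TPM, at 0 in T420F), and Stmn3, a tubulin-binding protein of neurons (1546 TPM, at 0 in T410F). Their medians over the 19 libraries were 763, 1582, 1120 and 1270 TPM, so these genes were abundant in most libraries that held them.

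The transcriptome was concentrated in few genes. In the mean profile, 10 genes held 10.7% of TPM, 20 held 14.3% and 100 held 26.6%, while 589 genes were needed for 50% and 5641 for 90%. Within single libraries the 100 most abundant genes held 21.9% (T397F) to 35.0% (T448M), and 50% of TPM took between 288 genes (T448M) and 881 (T393F).

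Cldn5, which encodes claudin-5, the main tight junction protein of the blood-retina barrier, was the most abundant gene at 30367 ± 12592 TPM (SD, n = 19). Its level ran from 10898 TPM in T401F through a median of 32752 to 54175 in T399F, and it led 12 of the 19 libraries. Gm20594, a predicted mouse gene whose symbol is not in the Nile rat annotation, followed at 22614 ± 14540 TPM and led the other 7 libraries. It varied more, from 4713 TPM in T410F to 68193 in T396F. These top levels overlapped, since Cldn5 exceeded Gm20594 in the same 12 of 19 libraries that it led. The share of mt- genes was also lowest in T410F (5.27%) and was 26.0% in T396F. T401F, however, had 37476 TPM of Gm20594 at an mt- share of 13.1%. Reads of this predicted gene may belong to a related sequence, and their origin was not tested.

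Ptms, encoding the nuclear protein parathymosin, reached 10166 ± 4400 TPM, and Rgs5, a regulator of G protein signaling used as a pericyte marker, 8397 ± 3560. Rgs5 was lowest in T393F (2834 TPM), had a median of 7264 and was highest in T409F (15668). Itm2a, a membrane protein rich in endothelial cells of brain and retina, stood at 7778 ± 3422 TPM with a median of 8279. Apoe, a lipid carrier made by glia, stood at 7548 ± 3480 TPM. Itm2a was above Apoe in 11 of 19 libraries, so these neighbors in the order did not differ beyond their spread. The same held for Tmsb4x, which binds actin monomers (5639 ± 2083 TPM), and Cst3, the secreted protease inhibitor cystatin C (5614 ± 3107), where Tmsb4x was higher in 10 of 19.

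Of the other genes among the 20, H2-Q4, H2-D1 and H2-Q7 encode major histocompatibility complex (MHC) class I chains, which present peptides to T cells. Their mean levels were 4677, 3449 and 3217 TPM. These are related genes, among which reads may be split, so their order is uncertain. Tuba1a, an alpha tubulin, was less variable than the 9 genes ranked above it, at 4575 ± 1439 TPM. Ly6a, a surface protein of vessel-lining cells (4110 TPM), Mrfap1 (4067), Ptma, encoding prothymosin alpha (3962), the RNA-binding Pcbp1 (3411), the intermediate filament Vim (3396), the histone gene Hist1h2bh (3368) and Tpt1, a translation-associated protein (3154), completed the 20 with Hbb-bs. Hbb-bs, a beta globin of red blood cells, had a mean of 3613 TPM but a range from 139 (T399F) through 2828 to 13661 (T348M). It stood above H2-D1, the next gene by mean level, in only 5 of 19 libraries.

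In the other 9 rats, 17 of these 20 genes were among the 20 most abundant, and 88 of the 100 among the 100. Ptma, Hist1h2bh and H2-Q7 gave way there to the alpha globin gene Hba-a2, the predicted MHC gene Gm8909 and Tm4sf1, an endothelial membrane protein. Tm4sf1 ranked 22 and Hba-a2 ranked 46 in the 19 rats. No difference between rats was tested.

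**Figure D2:**
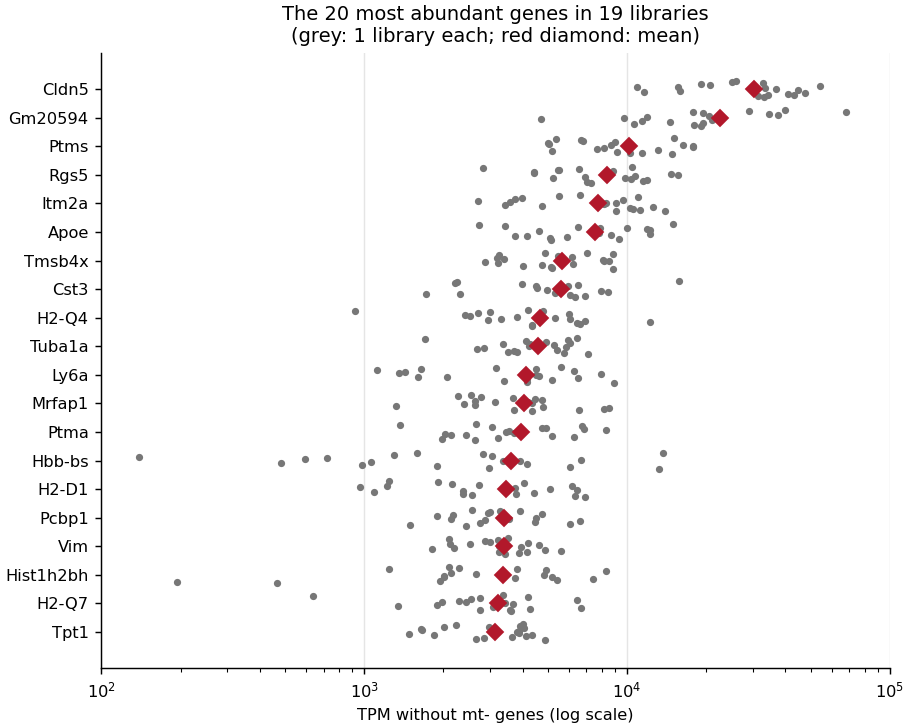
Level of the 20 genes with the highest mean over 19 libraries (horizontal axis, TPM without mt- genes, log scale), with 1 grey point per library and a red diamond for the mean. Cldn5 and Gm20594 stand apart at the top, and Hbb-bs spreads from 139 to 13661 TPM.

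The label of the tissue was checked against lists of markers. In bulk RNA, fewer cells of a type and less RNA per cell cannot be told apart, so a summed level is not a share of cells. The 25 endothelial markers summed to 47345 ± 18012 TPM, from 18658 (T401F) to 75726 (T399F), and 23 of them were found in all 19 libraries. Cldn5 made up 63.4% ± 4.24 of this sum. Without it the other 24 summed to 16978 ± 5845 TPM. Vwf, the von Willebrand factor of clotting, had 1182 ± 488 TPM, Cdh5, the cadherin of endothelial junctions, 829 ± 359, and Pecam1, their adhesion molecule, 643 ± 252. Each was found in all 19 libraries, with Pecam1 running from 327 through 595 to 1230 TPM.

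Pericyte markers (14 in the tables) summed to 10546 ± 4300 TPM, of which Rgs5 held 79.3%. Vtn, encoding vitronectin, followed at 473 TPM and Pdgfrb, the receptor through which endothelial cells recruit pericytes, at 141 ± 63.3 TPM (37.9 to 280). Smooth muscle markers were lower, at 971 ± 400 TPM. Acta2, smooth muscle actin, had 504 ± 315 TPM, with 90.7 in T419F, a median of 469 and 1342 in T420F. Tagln, a further marker of these cells, was found in only 5 libraries. Fibroblast and adventitial markers summed to 2023 ± 1104 TPM, 86.7% of it from Mgp, an inhibitor of calcification.

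Müller glia and astrocyte markers came second among the cell type lists, with 14208 ± 4412 TPM. Apoe and Vim, which other cells express too, led this list. Glul, the glutamine synthetase of glia, stood at 828 ± 452 TPM and was found in every library (358 to 1958). Aqp4, the water channel of glial endfeet, was found in all 19 as well, at 192 TPM (19.3 to 527), and was among the 100 most variable genes described below.

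Neurons of the retina left smaller and more uneven signals. The 15 rod markers summed to 1962 ± 1420 TPM, from 394 in T396F through 1567 to 5891 in T414F. Sag, the rod arrestin, ran from 3.66 TPM (T430F) through 98.5 to 396.5 (T414F). Cone markers summed to 511 ± 493 TPM, of which Gnb3 alone held 52.4%, and none of the 10 was found in all 19. Bipolar cell markers summed to 259 TPM, also with none found everywhere. Amacrine, horizontal and ganglion cell markers summed to 1512 TPM, of which the neurofilament Nefl held 48.5%. Of all 56 neural markers, between 17 (T420F) and 56 (T397F, T401F and T414F) were found per library, and their sum ran from 1045 (T420F) to 10421 TPM (T414F).

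Erythrocyte genes were uneven, with 5414 ± 5515 TPM (7 in the tables) and a range from 202 (T399F) to 19312 (T448M). Immune cells were near the lower end. Microglia and macrophage markers summed to 89.9 TPM and other leukocyte markers to 14.7 TPM. Aif1, the microglial marker IBA1, was at or under 3.41 TPM in every library and was found in 10. Rpe65, the isomerase of the retinal pigment epithelium, was found in 7 libraries with a highest level of 24.1 TPM. The sum of the pigment epithelium list, 343 TPM, came mostly from Rlbp1 (297 TPM), which Müller glia also express. Of the 13 lens crystallins, Crygb, Crygc, Crygd and Cryge were listed at 0 in all 19 libraries, and Cryab, a stress protein beyond the lens, gave most of the 167 TPM. Among the Y-linked genes, Eif2s3y stood at 193 to 594 TPM in the 5 males and at 0 to 5.66 TPM in the 14 females, as the labels of sex state.

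**Figure D3:**
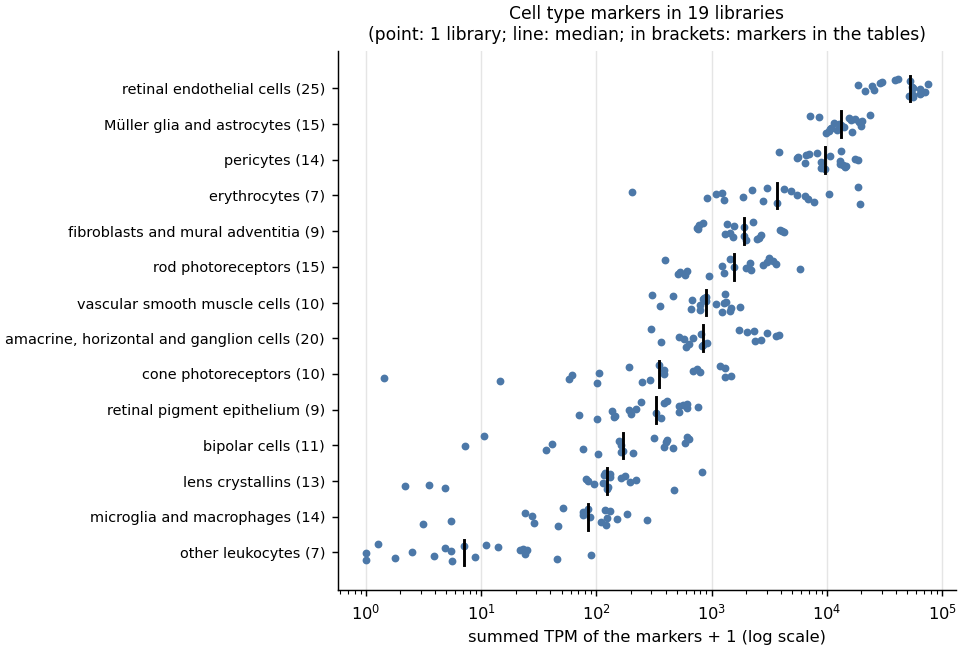
Summed TPM of the markers of 14 cell types (horizontal axis, sum + 1, log scale), with 1 point per library and a black line at the median of 19. Endothelial markers lie highest, between 18658 and 75726 TPM, and leukocyte markers lowest, with 2 libraries at 0.

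Endothelial marker sums did not overlap between the 7 libraries with more genes found and the 12 with fewer. All 7 libraries with more genes found had an endothelial sum of 18658 to 39397 TPM, and the 12 with fewer genes had 41096 to 75726 TPM. This was not particular to endothelial markers, since other lists were parted without overlap too. Bipolar cell sums were 383 to 636 TPM in the 7 and 6.26 to 313 in the 12. Of the functions given below, RNA splicing sums were 7434 to 9633 TPM in the 7 and 3207 to 5182 in the 12. Ribosomal protein sums were 15810 to 24289 and 26478 to 68343 TPM. Sums of the cone, junction, translation factor, usual reference gene and MHC class I and interferon lists were parted without overlap as well. All other lists overlapped. Pericyte sums overlapped, with 3838 to 8878 TPM in the 7 and 8205 to 18731 TPM in the 12, and rod sums did as well, with 1440 to 5891 and 394 to 3138 TPM. Over all 19 libraries, endothelial and pericyte sums rose together (Pearson's r = 0.67, permutation p = 0.00245, adjusted p = 0.0110, and Spearman's rho = 0.72, permutation p = 0.00058, adjusted p = 0.00522), with r = 0.60 without the 2 libraries farthest in the endothelial sum. Endothelial and rod sums ran opposite (r = -0.68, permutation p = 0.00103, adjusted p = 0.00927, and rho = -0.60, permutation p = 0.00787, adjusted p = 0.0354), with r = -0.68 again without those 2. Neither relation passed the test within the 7 or within the 12. The split narrows the range of the endothelial sum and leaves fewer libraries, so these tests cannot tell whether a relation is absent there. In the 12 libraries, endothelial and pericyte sums showed no detectable relation (r = -0.01, permutation p = 0.974, adjusted p = 0.974, and rho = 0.13, permutation p = 0.683, adjusted p = 0.683). In the 7, r was -0.38 (exact permutation p = 0.395, adjusted p = 0.765) and rho 0.04 (exact p = 0.963, adjusted p = 0.963). Endothelial and rod sums gave r = -0.17 in the 12 (permutation p = 0.599, adjusted p = 0.770, and rho = 0.15, p = 0.635, adjusted p = 0.683) and r = -0.38 in the 7 (exact permutation p = 0.378, adjusted p = 0.765, and rho = -0.29, p = 0.556, adjusted p = 0.834). Tests were two-sided, and p-values were adjusted over the 9 relations computed. All sums are parts of the same 1000000, so they are not free to vary apart.

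Lists of cell functions described what else the vessel transcriptome held. Of 14 tight and adherens junction genes, 12 were found in all 19 libraries. Behind Cldn5 and Cdh5 came F11r, a junctional adhesion molecule (479 TPM), and Ctnnb1, the catenin that links cadherins to actin (456 TPM). Of 18 transporters of the barrier, 16 were found in all, for a sum of 4420 ± 1172 TPM. Slco1a4, an organic anion carrier, led with 1131 ± 501 TPM, followed by Slc16a1, the monocarboxylate carrier MCT1, with 535 ± 103, the glucose carrier Slc2a1 with 438 ± 150 and the taurine carrier Slc6a6 with 398.2 ± 139.5. Matrix genes (15 of 18 in all libraries) summed to 5477 ± 1613 TPM. Sparc, a collagen-binding glycoprotein, had 1425 ± 373 TPM, Timp3, an inhibitor of matrix proteases, 1350 ± 641, Sparcl1 1098 ± 377 and fibronectin, Fn1, 424.99 ± 173.3.

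Endothelial transcription factors summed to 2713 ± 834 TPM, with Ets1 (655 TPM), the flow-responsive Klf2 (319), the hypoxia factor Epas1 (319) and Sox18 (238) as the most abundant. MHC class I and interferon response genes summed to 9983 ± 4199 TPM. H2-K1 stood at 2342 ± 842 TPM, B2m, the light chain of MHC class I, at 1376 ± 687, and Ifitm3, an antiviral membrane protein, at 1124 ± 761. Immediate early genes summed to 3352 ± 1020 TPM, mostly from Jun (935), Ier2 (685) and Jund (534). Cell division genes were low, with 1 of 19 found in all libraries and a sum of 229 ± 86.9 TPM, led by the replication clamp Pcna (56.5 TPM, at 0 in 2 libraries).

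Ribosomal protein genes held 32010 ± 13944 TPM over 83 genes, from 15810 in T397F to 68343 in T448M. Nuclear genes of oxidative phosphorylation summed to 9528 ± 1785 TPM and proteasome genes to 4682 ± 526. The proteasome sum had the lowest coefficient of variation (CV, the SD over the mean) of all 30 lists, at 0.112. This is a trait of the sum, since its 36 genes taken singly had a median CV of 0.482. Translation factors summed to 9991 ± 2418 TPM, led by Tpt1 and the elongation factor Eef2 (2124 ± 885), and chaperones to 6831 ± 1572, led by the calcium-binding Calr (1664 ± 786). Glycolysis summed to 2840 ± 622 TPM with the aldolase Aldoc (691 ± 334) at its head, RNA splicing and hnRNP genes to 5825 ± 2288 and the usual reference genes to 6033 ± 1464. Rpl39l and Cox7b2, members of these families, were listed at 0 in all 19.

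Steadiness was read from the CV of a gene over the 19 libraries, within the 1446 genes found in all 19 with a mean of at least 100 TPM. The median CV was 0.471 (0.170 to 1.82), and the CV due to counting had a median of 0.059. No gene of the 1446 had a counting CV over 50% of its CV. The 100 genes with the smallest CV are called steady here and the 100 with the largest variable, which is a description and no test. The last steady gene had a CV of 0.2860 and the next gene 0.2866, and the last variable gene 0.785 against 0.781 for the gene before it. The border between these and the other genes is thus one of rank, not of a gap. In the other 9 rats, where the median CV of the same genes was 0.364, 91 of the 100 steady genes lay below it and 94 of the 100 variable genes above it. Fewer stayed among the extreme 100 there, 36 of the steady and 54 of the variable.

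**Figure D4:**
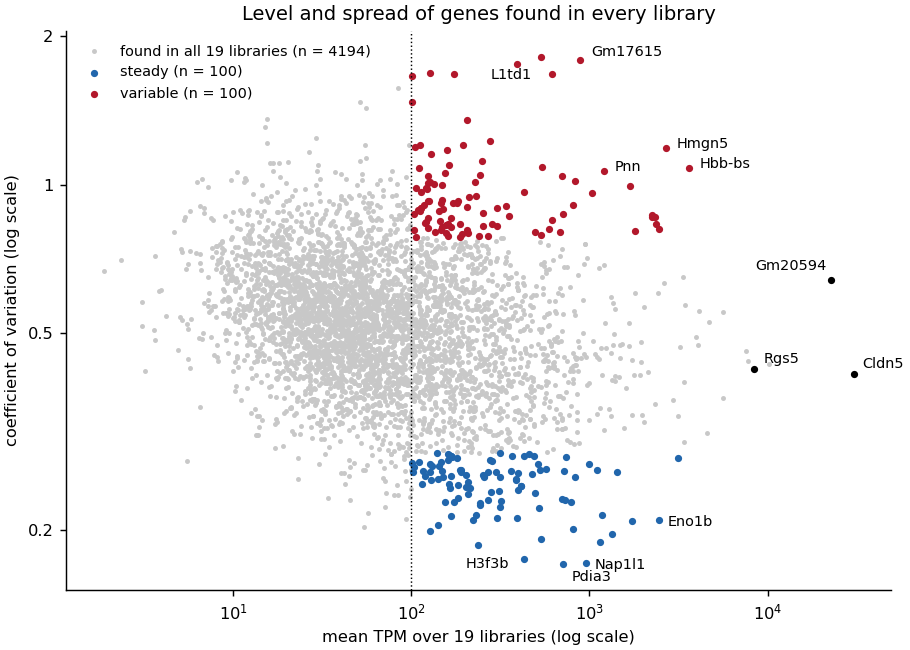
Coefficient of variation (vertical axis, log scale) against mean TPM (horizontal axis, log scale) of the 4194 genes found in all 19 libraries, with the 100 steady genes in blue, the 100 variable genes in red and a dotted line at 100 TPM. Cldn5, Gm20594 and Rgs5, the abundant genes named in black, lie between the extremes, and Pdia3 is lowest at a CV of 0.170.

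Pdia3, a disulfide isomerase that folds glycoproteins in the endoplasmic reticulum, was the steadiest gene with 711 ± 121 TPM, from 498 (T448M) through 684 to 1013 (T430F). Nap1l1, a histone chaperone, followed with 952 ± 163 TPM (553 to 1203), and H3f3b, which encodes the replacement histone H3.3, with 427 ± 74.7 TPM (299 to 534). In Pdia3 the highest library was 2.03 times the lowest, in Nap1l1 2.18 times and in H3f3b 1.78 times. Eif5, a translation initiation factor (CV 0.187), Hspa8, the constitutive heat shock cognate (0.189), and Slc16a1 (0.192) came next.

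RNA-binding proteins among the 20 steadiest were Hnrnpf (1331 ± 261 TPM), Sf3b2 (128 ± 25.3), Nono (166 ± 35.5) and the nucleolar Npm1 (807 ± 162). Enzymes and carriers of energy metabolism were Eno1b, an enolase (2456 ± 514 TPM, the most abundant of the 20), the aldolase Aldoa (302 ± 64.0) and Slc25a3, which carries phosphate into mitochondria (222 ± 46.5). Others were Itm2b (1736 TPM), Calm3, a calmodulin gene (521), Morf4l1 (394) and Morf4l2 (317), which belong to chromatin complexes, the predicted Gm9242 (231) and the ubiquitin ligase Pja2 (142). Eno1b and Gm9242 are mouse gene copies for which the counting may share reads with a relative.

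Of the fixed lists, glycolysis had 4 of its 10 genes in the pool among the steady 100 (Aldoa, Ldha, Gapdh and Hk1), against 6.92% of the pool (100 of 1446 genes) by the rule itself. The usual reference genes, which also include Gapdh, had 2 of their 12 genes in the pool among the steady 100. Actb, the cytoskeletal actin, had 822 ± 245 TPM and a CV of 0.298, and B2m one of 0.499, and neither was steady. Barrier transporters gave 2 of 10 (Slc16a1 and Slc3a2), matrix 2 of 7 (Sparc and Lamb2) and chaperones 2 of 11 (Hspa8 and Hsp90ab1). Counts in lists this small were not tested against that share of 6.92%. The pool held 20 endothelial and 8 pericyte markers, too few to set their 0 steady genes apart from the same share, and 0 of them were variable.

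The 7 genes with the largest CV moved together. They were 4930512M02Rik, Gm17615, Gm21962, Gm21833, Gm21750, L1td1 and Gm21897, and all had their highest level in T393F and their 7 highest libraries in the 7 with more genes found. L1td1, a protein derived from a LINE-1 retrotransposon, ran from 7.22 TPM (T348M) through a median of 69.4 to 3752 (T393F). Gm17615 ran from 1.24 TPM (T410F) through 35.5 to 6004 (T393F). For Gm17615 the seventh highest library had 335 TPM and the eighth 49.1. In T393F it rested on 193911 expected counts, so depth did not limit this value. Its lowest expected count in a library was 1, so the low end of its range is uncertain. The other 9 rats held both low and high values, from 5.64 to 2124 TPM for Gm17615 and from 11.4 to 1291 for L1td1. The 6 other than L1td1 are predicted or unnamed mouse gene models, among which the pipeline could share reads.

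A further 15 of the variable genes encode proteins of pre-mRNA splicing and nuclear RNA handling, and were picked out after their values were seen. They include Rbm25, Pnn, Pnisr, Luc7l3, Rsrp1, Snrnp70 of the U1 particle, the splicing kinase Clk1 and the SR proteins Srsf2 and Srsf11. Pnn stood at 1203 ± 1281 TPM, with 144 in T420F, a median of 638 and 4945 in T404F. Luc7l3 ran from 56.6 TPM (T420F) through 366 to 2344 (T404F) and Rbm25 from 31.4 (T448M) through 130 to 1141 (T404F). T398F, T401F and T404F were among the 7 highest libraries for all 15 genes, T397F for 14, T414F for 13 and T419F for 12. T396F was among them for 8, T393F for 6, T399F for 5 and T447M for 2. Over all 1446 genes of the pool, these first 6 libraries were among the 7 highest for 24.6% (T414F) to 32.6% (T398F), and over the 100 variable genes for 47 (T414F) to 62 (T397F, T398F and T401F). T348M, T408F, T409F, T410F, T420F, T424M, T425M, T430F and T448M were among the 7 highest for none of the 15. The fixed list of RNA splicing and hnRNP genes held both kinds, with 3 of its 14 pool members steady and 3 variable. The abundant helicase Ddx5 (1210 ± 385 TPM) was neither.

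Genes of neurons and secretory vesicles varied over the same libraries. Syp, the vesicle protein synaptophysin, had 2354 ± 1959 TPM, from 96.2 (T410F) through 2184 to 6109 (T414F). The secretogranin Scg2 had 2241 ± 1927 TPM, from 3.40 (T420F) to 6400 (T419F). Chgb and Chga, the chromogranins, and the neurofilaments Nefl and Nefm were variable too. T397F, T398F, T401F, T404F and T414F were among the 7 highest libraries for all 6 of these genes, chosen after their values were seen, and T419F for 5. The summed neural markers, of which Nefl and Nefm are members, were also highest in these 6 libraries, with 6384 (T419F) to 10421 TPM (T414F), against at most 4950 TPM (T393F) in the other 13. The part of neural RNA in the levels of these genes was not tested.

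Red blood cell genes and single ribosomal genes were highest in other libraries. Hbb-bs (CV 1.08) and Hba-a2 (CV 0.995, 51.6 TPM in T399F to 5967 in T448M) were both variable. Of the 59 ribosomal protein genes in the pool only 2, Rps20 and Rps27a, were variable, against 6.92% of the pool by rule. Rps20 had its highest level in T448M (7884 TPM, median 1192), as had Rps27a (8223 TPM, median 2072) and the variable Rps27rt, which is not on the list (773 TPM, median 122). Rps27rt is a mouse copy of a ribosomal gene, and its reads may belong to a related copy. Without T448M, 83 of the 100 variable genes and 89 of the 100 steady genes were again in their set.

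Others among the 20 most variable differed in where they were high. Col11a2, a chain of fibrillar collagen, and Las1l, a factor of ribosome assembly, had their 6 highest levels in the same 6 libraries as the neural sums, with 208 (T397F) to 383 TPM (T404F) and 114 (T414F) to 422 TPM (T404F). A2m, a protease inhibitor of plasma, had 205 ± 277 TPM and its highest level in T348M (1281, median 142). Cryab was also highest in T348M (546 TPM) and lowest in T425M (0.315). Gstm5, a glutathione transferase, was highest in T448M (683 TPM, median 79.7). Hmgn5, a nucleosome-binding protein, was the most abundant of the 20 most variable genes at 2690 ± 3187 TPM, from 140 (T448M) through 1442 to 11491 (T404F), and T401F and T398F came next. Zfp820 was highest in T425M (956 TPM) and Mrpl53 in T420F (432 TPM). Zfp820, Col11a2, Las1l and Mrpl53 had CVs between 1.08 and 1.21.

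**Figure D5:**
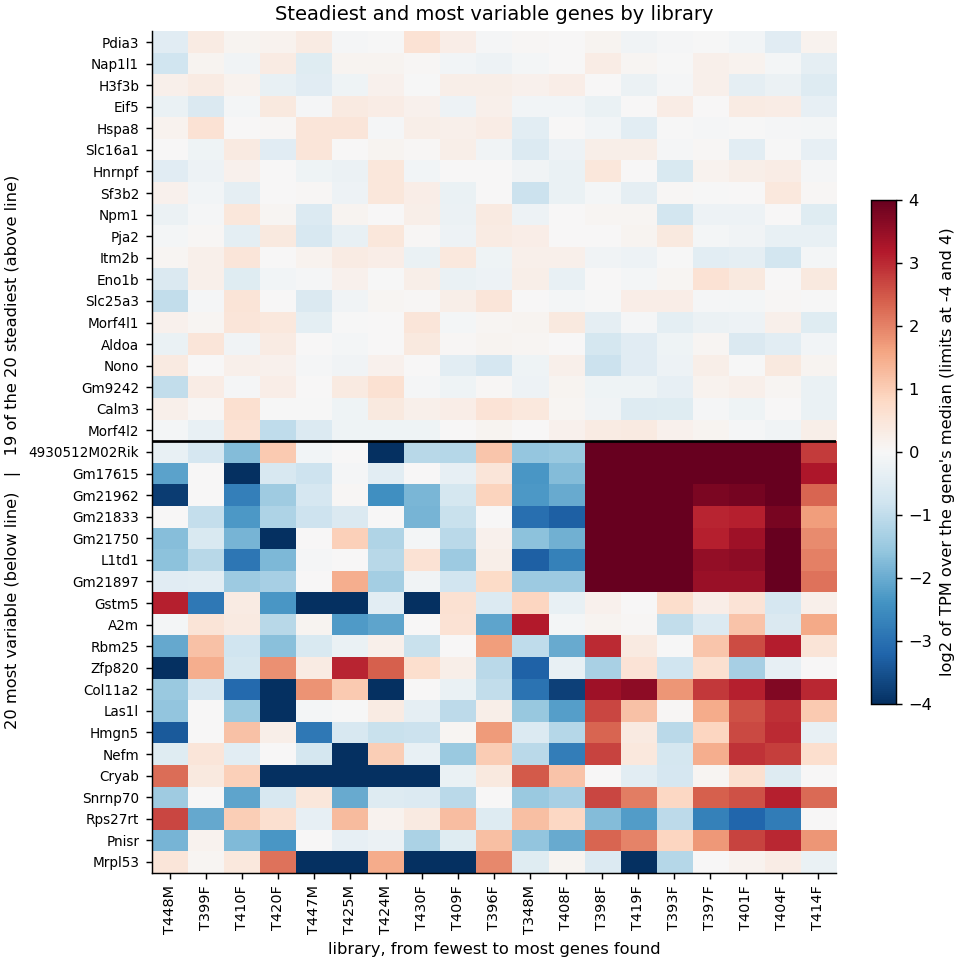
Level of 19 of the 20 steadiest genes (above the line) and the 20 most variable (below it) in each library, as log2 of TPM over the gene's median, with red for higher, blue for lower and the color scale limited at both ends. Libraries run from fewest to most genes found (7500 in T448M to 16139 in T414F), and the 7 genes at the top of the lower block are red in the 7 libraries on the right.

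Steady and variable genes differed in what the files tell of them. Of the steady genes 91 of 100 carried a symbol that the Nile rat annotation also has, of the variable genes 75 of 100 and of the pool 86.9%. Predicted names (starting with Gm or like 4930512M02Rik) were given to 1 steady and 10 variable genes. The length behind the TPM, derived from counts over TPM and relative to the median of the pool, had a median of 1.75 for steady genes, 0.54 for variable genes and 0.42 for the 100 most abundant.

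Some genes were abundant in a few libraries and at 0 in the others. Of the 9854 genes with a mean of at least 10 TPM, 5782 were at 0 in at least 1 library. A gene found in 1 library only has the largest CV that 19 values can have (4.36), and 39 genes tied at it. The 10 named here are an arbitrary choice among these ties. Odam (61 counts) and 4921511C20Rik (160) were found in T419F, Gm9923 (226) in T420F, Olfr1204 (37) and Gm5082 (44) in T393F, and Hypm (36), Tmco2 (31), Fabp9 (69), Prm2 (102) and Hspb9 (8) in T448M.

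T448M also stood apart by its genes of spermatids, the last cells of sperm formation, which Prm2, a protamine that replaces histones there, prompted a look at. A list of 30 such genes was written after these values were seen, and 28 of them were in the tables. In T448M 12 were found, against 2 to 10 in the other 18 (10 in T393F and in T414F), so the number set it apart less than the level in TPM did. They had a sum of 6422 TPM, against 23.7 to 919 TPM (median 330) in the other 18 libraries and at most 763 TPM in the other 9 rats. In counts T448M did not stand out, with 675 on the list against 12 (T410F) to 3711 (T393F) in the other 18, all but T410F deeper. The TPM sum thus rests on few counts, and Gapdhs had 22.2 TPM in T448M on 86 counts. Of the 12 in T448M, 6 (Prm2, Tnp1, Fabp9, H1fnt, Actl7b and Dkkl1) were found in none of the other 18. Their levels in T448M were 427, 1098, 861, 1700, 1047 and 569 TPM, on 102, 46, 69, 88, 29 and 61 counts. The library had 934250 counts in all, and where this RNA came from was not tested.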

How the data were processed

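Isolated retinal vessels of 28 Nile rats were sequenced by the study as LM-seq libraries from 100 ng of total RNA, with 1 library per rat. The deposited tables hold expected counts, estimated and not scaled between libraries, and TPM, which the authors scaled by transcript length to 1000000 per library. Their 18970 genes carry mouse symbols, so the values were taken as those of the study's comparative pipeline, which assembles transcripts and assigns them to mouse genes without a genome. Name and version of its aligner are not given in the sources used here, and the study's values mapped to the genome were not used here. The study reported a moderate rank correlation between TPM of the pipeline and TPM mapped to the genome. It found the mapped values less dispersed, used them for its own markers, and proposes that the pipeline may bring in noise. How far this entered the levels and CVs given here was not tested. Genes shared between near copies can trade reads in such an assignment.

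From the TPM, 12 mt- genes were left out, and each library was rescaled. Mean, SD, median, CV (ddof 1) and the number of libraries with TPM above 0 were computed per gene with Python 3.11.15 and pandas 2.3.3. The counting CV was derived from the expected counts. Depth ranged from 153108 to 10029200 counts, which limits what the shallowest library can show, and intervals or floors cover counting error only. No difference between groups was tested, and the 7 and the 12 libraries were set side by side as a description. Relations over rats (9) were given by Pearson's r and by Spearman's rho, from 100000 two-sided permutations, or all of them for 7 libraries, with Benjamini-Hochberg adjustment. The p-values tell how often a relation at least as strong arises when the values of the libraries are paired at random. As an alternative, counts were rounded and scaled by TMM in edgeR 4.0.16 (R 4.3.3). No sequence was analysed, since none was at hand here. Of the symbols, 14497 (76.5%) are in RefSeq's Nile rat annotation (mArvNil1.pat.X).

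Named genes are the 20 most abundant, the 20 steadiest and 20 most variable of the pool, the 10 of largest CV among genes of at least 10 TPM that some library lacks (tied, and taken in an arbitrary order), the 4 most abundant of each list (14 of cell types, 16 of functions), defining markers and list members at 0 everywhere. Some items that this rule names are not reported here. Other names were chosen after their values were seen. The members and lists were chosen with earlier results of these data known.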

Additional observations from a re-analysis of the deposited data

How the results depend on the processing

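The count of 4194 genes found in all libraries became 2734 at an expected count of 5 or more, 2468.3 (mean of 10 draws) with each library thinned to the smallest total, and 8062 over the 11 libraries with a median TPM of 1 or more, a choice made after seeing the data. The 100 most abundant genes held 37.8% of TPM with mt- genes kept and 18.1% of CPM scaled by TMM, and 50% took 328 and 974 genes under these settings. With CPM, which is not divided by length, 5 of the 20 most abundant genes stayed among the 20. The other settings kept 15 to 19 of them.

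Of the 100 steady genes 64 stayed in their set with only densities under 10 per mm2, 63 with a pool minimum of 200 TPM, 52 with CPM, 52 by the median absolute deviation and 52 over the 11 libraries. Of the 100 variable genes 66 stayed with only densities under 10 per mm2, 62 with a pool minimum of 50 TPM, 59 with only the 14 females, 56 by the median absolute deviation, 49 with CPM, 45 by the SD of log2(TPM + 1), 45 with a pool minimum of 200 TPM and 40 over the 11 libraries. Membership thus rests on the measure of spread and on the libraries taken, and the cause was not tested. The median CV of the pool stayed between 0.418 and 0.494 under every setting. Without the shallowest library, T410F, 91 steady and 90 variable genes stayed.

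Over all 19 libraries depth and genes found gave r = 0.53 (adjusted p = 0.0438) but rho = 0.48 (adjusted p = 0.118). r became 0.38 without the 2 libraries farthest in depth, 0.35 within the 12 libraries with fewer genes found and 0.069 within the 7 with more. For endothelial with pericyte sums, r was 0.67 over all 19 but -0.010 within the 12 and -0.38 within the 7, neither of which passed the test, while rho stayed above 0 (0.13 and 0.04). Those with rod sums (-0.17 and -0.38) no longer passed the test either. The split was made after seeing the data, at a gap little wider than the next one. It also narrows the range of the endothelial sum within each part, so a failed test there does not show that a relation is absent. The summed levels of all 14 cell type lists moved by less than 1 SD with mt- genes kept or by the median. The CV of 173 of 176 named genes stayed within 1.5 times with CPM, and of 163 of 170 in the females. No paired analysis was made, since each rat had 1 library and no difference between groups was tested.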

Other observations

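Among the genes that some library lacked, several libraries held genes almost alone. T448M gave over 90% of the summed level of 28 genes with a mean of at least 10 TPM, T419F of 11 and T393F of 8, while T397F and T430F gave it for none. T448M was the only library with 19 genes, and T393F and T419F with 5 each.

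Other Y-linked genes went with the labels of sex as well, though less cleanly at low levels. Ddx3y stood at 158 to 462 TPM in the 5 males and at 0 to 53.7 TPM in the 14 females, and Kdm5d at 14.5 to 93.0 TPM against 0 to 0.359 TPM. Uty did not separate the sexes, with 0 to 8.45 TPM in males and 0.051 to 31.6 TPM in females, and it has a close relative, Kdm6a, on the X chromosome.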
